A study of Mus musculus with 34 samples.

Results

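Tumours that arose in Pdgf-c transgenic mice were set against livers of Pdgf-c transgenic mice that ate 0.06% peretinoin, both taken at week 48. These were 10 of the 34 arrays of the series, 5 tumours and 5 peretinoin-fed livers, and they were chosen by their sample titles, not by any measured value. All 10 samples came from mice with the Pdgf-c transgene, which makes platelet-derived growth factor C. The diets began at weaning at week 4, and the tumour labels name no peretinoin. The comparison therefore differs in tissue and in diet at once, and within these 10 samples the part of each cannot be told apart. Basal-diet livers of transgenic mice (n = 5) and livers of wild-type C57/B6 mice (n = 4) of week 48 are given beside it, as levels and for some genes as differences from the basal-diet livers. The labels give the tissue of every sample as liver. The transgene's promoter, the sex of the mice, whether any tumour shares its mouse with a liver, and whether the peretinoin-fed livers held tumours are not given in the sources used here. Each sample was 1 Affymetrix array, and nothing further says that replicates were separate animals, so p-values measure the spread between samples. That spread was estimated for each gene over all 34 arrays of the 7 groups, not over the 10 compared arrays alone.

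PDGF-C is a ligand that binds the PDGF receptors of hepatic stellate cells, the liver cells that store vitamin A and that lay down collagen once activated. Mice whose livers make too much of it develop fibrosis and later liver tumours. Peretinoin is an acyclic retinoid. Retinoids act through the nuclear retinoic acid receptors and their partners, the retinoid X receptors, and retinoid X receptors also pair with receptors that govern the use of fat and bile acids, such as PPAR-alpha.

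Signals are linear array intensities, scaled by the authors to 1 common level per array. Gene differences are log2(signal + 16) of tumours minus that of peretinoin-fed livers, which understates changes of dim genes. Folds are taken on the same scale. Errors of differences are standard errors of the limma fit. Errors of signals are SD over the 5 samples of a group, or over 4 for wild-type liver. A gene was called at an adjusted p under 0.05 (limma, Benjamini-Hochberg over all genes tested, two-sided). In bulk tissue, fewer cells of a type and less RNA per cell cannot be told apart, which holds for each result that follows.

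The 5 tumours resembled each other more than the 5 peretinoin-fed livers did. An array's mean correlation with the rest of its group was 0.967 to 0.972 for tumours and 0.925 to 0.958 for peretinoin-fed livers, and the median SD of a gene was 0.238 and 0.295 on the log2 scale. Peretinoin-fed liver 1 carried transcripts of skeletal muscle: the mean of 8 muscle genes was 13.31 there on the log2 scale and 5.37 to 5.91 in the other 9 samples. The 3' over the 5' signal of Actb, a sign of RNA quality, was 1.25 to 1.47 in tumours and 1.42 to 1.94 in peretinoin-fed livers. The median signal was 74.5 to 86.3 in tumours and 71.5 to 77.5 in peretinoin-fed livers. The number of arrays limits the precision. Albumin and the other 11 measured hepatocyte markers had no call, and the mean log2 level of these 12 genes was 14.29 to 14.67 in tumours and 14.31 to 14.79 in peretinoin-fed livers.

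Of 13099 genes tested, 203 were called (1.55%): 118 were higher (0.901%) and 85 lower (0.649%) in tumours. Of the called genes 54 differed at least 2-fold (0.412%), 40 of them higher and 14 lower in tumours. The groups did not overlap for 381 genes (2.91%), and 107 of these were called. The median difference over all genes was 0.03, and 54.7% of genes lay above 0. Counts of list members above or below 0 that follow are to be read beside that share. The share of calls that were higher was 58.1%. It was 44.7% after quantile normalisation (85 higher, 105 lower), 26.1% after median centring (72 and 204), 67.5% with the mean of a gene's probe sets (135 and 65) and 50% with array weights (158 and 158).

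The number of calls rested on single arrays. It was 10 without peretinoin-fed liver 1, 9 without peretinoin-fed liver 2, 21 without tumour 5, 61 without tumour 1 and 889 without peretinoin-fed liver 4. It was nearer to 203 without tumour 2, 3 or 4 (198, 164 and 204) and without peretinoin-fed liver 3 or 5 (229 and 302). It was 6 without the arrays of any group that carry transcripts of another tissue, and 1, the gene Gli3, with the Actb ratio as a covariate. A limma fit of the 10 arrays alone called 0 genes, with 1875 at an unadjusted p under 0.05 and a smallest adjusted p of 0.12. The calls thus rest on a spread shared with the other groups. Beside a called gene below, "kept in 9 of 10 fits" and the like count the 10 fits with 1 array left out that kept its call. The gene lists below were chosen with earlier results of these data known. Their counts beside the share of all genes are therefore descriptive, and no difference from that share was tested.

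**Figure D1:**
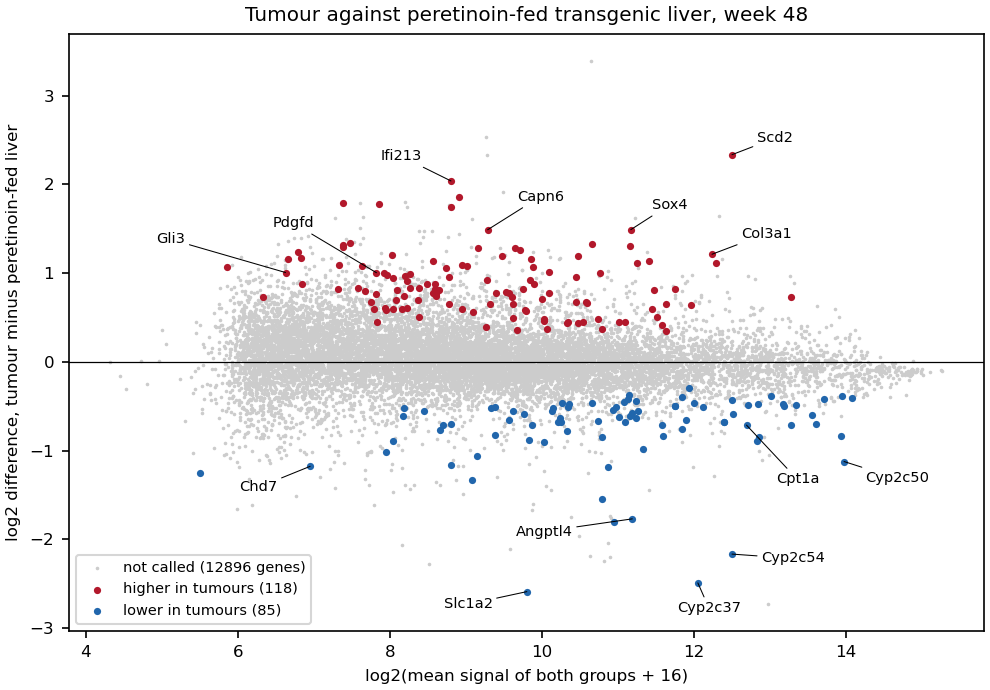
Each point is 1 of 13099 genes, with the mean signal of both groups on the x axis (log2 of signal + 16) and the log2 difference of tumours minus peretinoin-fed livers on the y axis. The 118 red points were called higher and the 85 blue points lower in tumours (limma, adjusted p under 0.05), and the 12896 grey points were not called.

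PDGF genes had higher signals in tumours, and 2 of the 6 were called. Pdgfd and Pdgfb, which encode ligands of PDGF receptor beta, rose; 0 fell, against 0.901% of all genes that rose. Pdgfd gave 404.5, 213.1, 300.3, 318.8 and 200.5 in tumours 1 to 5, and 96.0, 128.6, 122.1, 192.1 and 129.7 in peretinoin-fed livers 1 to 5. Every tumour was above every peretinoin-fed liver. The fold was 2.01 (adjusted p = 0.00871), kept in 9 of 10 fits. Pdgfd in basal-diet transgenic liver was 302 ± 57.9, close to the mean of 287 ± 83.6 in tumours, while the 134 ± 35.4 in peretinoin-fed livers was nearer to the 96.5 ± 25.4 of wild-type liver. The peretinoin minus basal-diet difference of Pdgfd was -1.10 (adjusted p = 0.0028) and the tumour minus basal-diet difference -0.09 (adjusted p = 0.963). These comparisons share samples with the main one.

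Pdgfb gave 314.0 to 491.0 in tumours and 105.4 to 311.0 in peretinoin-fed livers, without overlap (1.88-fold, adjusted p = 0.0286, kept in 5 of 10 fits). Pdgfc, the gene of the transgene, was 796 ± 160 in tumours, 603 ± 56.0 in peretinoin-fed livers, 798 ± 277 in basal-diet transgenic and 482 ± 26.4 in wild-type liver. Its difference was 0.38 ± 0.20 (adjusted p = 0.308). The probe set cannot tell the transgene from the mouse's own gene where both match it, so it does not check the genotype labels. The receptor genes Pdgfra (0.71 ± 0.29, adjusted p = 0.177) and Pdgfrb (0.48 ± 0.23, adjusted p = 0.252) were not called.

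Among 25 genes of the extracellular matrix, the collagens and glycoproteins of scar tissue, 4 were higher and 0 lower in tumours, against 0.901% of all genes higher. The list's median was 0.61, and 24 of 25 lay above 0. The called genes were the fibrillar collagen chains Col1a1, Col3a1 and Col5a2 and Thbs2, which encodes the matricellular protein thrombospondin 2. Fn1, fibronectin, which was named after its values were seen, had the opposite sign at -0.44 ± 0.12 (adjusted p = 0.059).

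Col3a1 gave 5946.5, 4371.4, 7564.6, 7579.7 and 7842.8 in the tumours and 2052.6, 1721.1, 3315.3, 4400.7 and 3333.5 in the peretinoin-fed livers. The groups touched only where peretinoin-fed liver 4 stood just above tumour 2. The fold was 2.32 (adjusted p = 0.015, kept in 7 of 10 fits). Col1a1 gave 974.4, 664.4, 965.8, 1290.4 and 931.9 in the tumours and 276.1, 279.9, 498.8, 625 and 447.6 in the peretinoin-fed livers. They did not overlap, and the fold was 2.28 (adjusted p = 0.0286, kept in 4 of 10 fits). Col5a2, of the collagen V chain that helps to set fibril width, was 1253 ± 158 in tumours and 567 ± 179 in peretinoin-fed livers, again without overlap (2.24-fold, adjusted p = 0.0294, kept in 3 of 10 fits).

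Thbs2 gave 356.8, 303.2, 276.3, 417.3 and 319.4 in the tumours, and 294.8, 79.6, 123.3, 198.4 and 70.7 in the peretinoin-fed livers. Peretinoin-fed liver 1, the array with muscle transcripts, was above the other 4 and within the tumours' range. The fold was 2.31 (adjusted p = 0.0147), kept in 9 of 10 fits, and the leave-one-out differences of Thbs2 ran from 1.01 to 1.47. Basal-diet transgenic liver gave 370 ± 63.7 and wild-type liver 83.4 ± 17.5. Serpinh1, the collagen chaperone HSP47, which was named after its values were seen, was 1954 ± 582 in tumours and 852 ± 290 in peretinoin-fed livers (2.28-fold, adjusted p = 0.0222, kept in 5 of 10 fits). Ddr1, a receptor for collagen, was also named after its values were seen, at 2244 ± 617 and 968 ± 573 (2.52-fold, adjusted p = 0.0343, kept in 3 of 10 fits), with 6 of its 7 probe sets of the same sign.

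The 150 bases before the RefSeq start (GRCm38.p6) of Thbs2 and Pdgfd, which were higher in tumours, and of Cpt1a, a fatty acid gene that was lower, are shown for reference to the genes the results turn on. Capitals mark CCAAT (on either strand, so also ATTGG), a common core promoter motif, and AGGTCA (also TGACCT), the half-site of many nuclear receptors including retinoid X receptor pairs. Col1a1, Col5a2 and Pdgfb were not matched in the table of promoters.
Thbs2, chr17:14694263-14694412, minus strand: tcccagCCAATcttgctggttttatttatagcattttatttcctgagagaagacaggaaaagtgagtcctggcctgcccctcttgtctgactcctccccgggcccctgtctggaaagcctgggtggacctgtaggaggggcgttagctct
Pdgfd, chr9:6168336-6168485, plus strand: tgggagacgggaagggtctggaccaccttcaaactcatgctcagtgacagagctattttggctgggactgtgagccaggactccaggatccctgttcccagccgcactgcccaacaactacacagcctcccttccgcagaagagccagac
Cpt1a, chr19:3323151-3323300, plus strand: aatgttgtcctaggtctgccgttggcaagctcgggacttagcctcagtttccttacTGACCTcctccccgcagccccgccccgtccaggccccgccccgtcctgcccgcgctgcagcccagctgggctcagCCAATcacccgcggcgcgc
The Thbs2 window holds CCAAT 144 bases before the start. The Cpt1a window holds TGACCT 94 bases and CCAAT 19 bases before the start, and the Pdgfd window holds neither. Among 32851 promoters, 24.5% hold CCAAT and 8.58% hold AGGTCA in a window of this length. A match is a description and not a shown binding site.

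**Figure D2:**
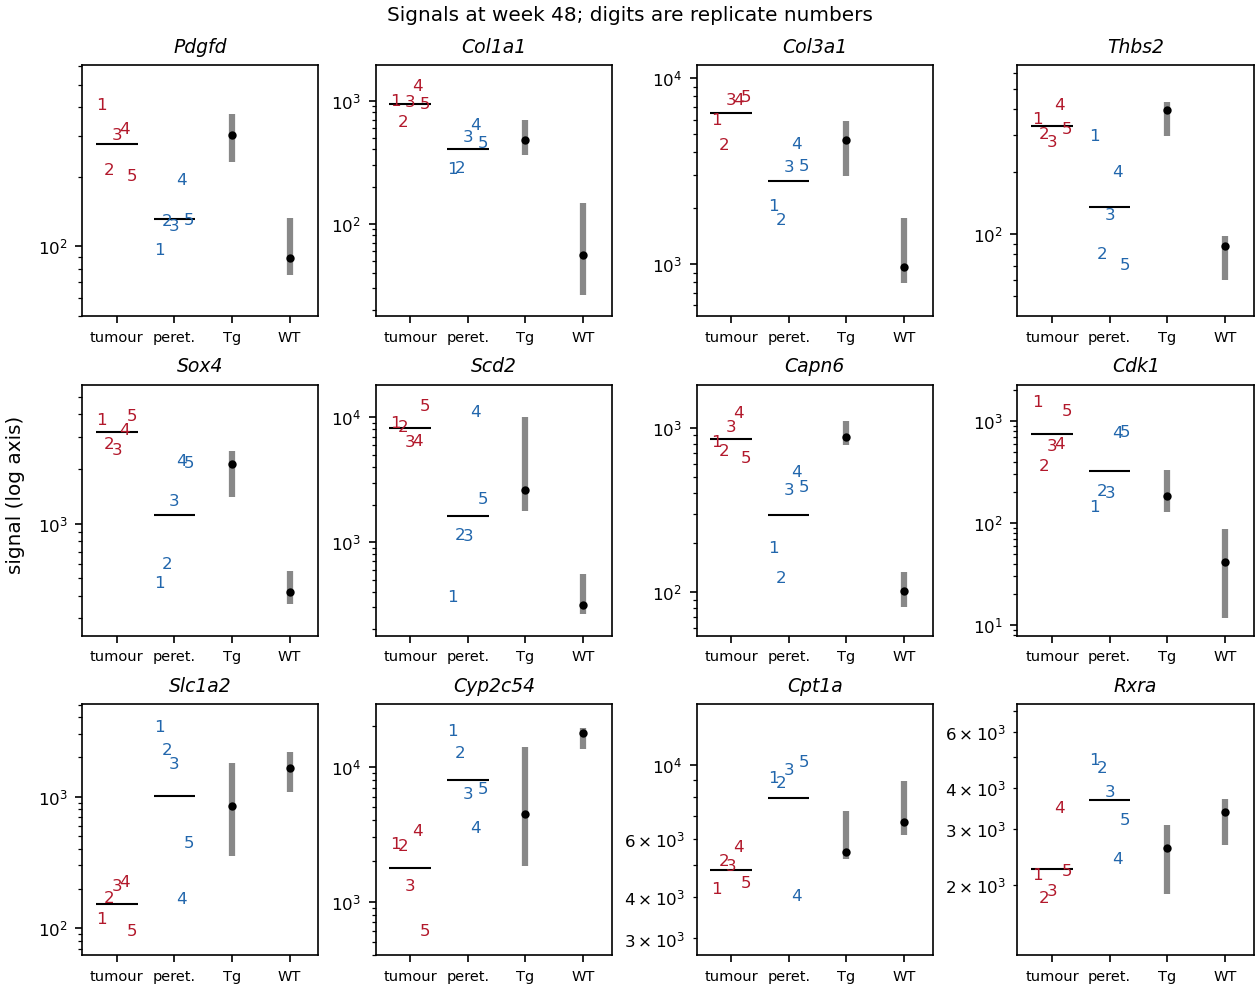
Signals of 12 genes at week 48 on a log axis; red digits are tumours and blue digits peretinoin-fed livers by replicate number, and each black line is the mean of log2(signal + 16) turned back to a signal. Grey bars give the range and black dots the median of basal-diet transgenic (Tg, n = 5) and wild-type (WT, n = 4) livers. Pdgfd, Col1a1, Sox4 and Capn6 do not overlap between tumours and peretinoin-fed livers, while Cdk1 of peretinoin-fed livers 4 and 5 and Slc1a2 and Scd2 of peretinoin-fed liver 4 lie among the tumours.

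Genes that remodel the matrix and markers of the cells that make it gave higher signals without a call. Of 13 proteases, inhibitors and cross-linkers 0 were called and 12 lay above 0, with a median of 0.68. Timp2, an inhibitor of matrix proteases, did not overlap between groups (0.67 ± 0.23, adjusted p = 0.0974), and Plat, tissue plasminogen activator, differed by 0.76 ± 0.28 (adjusted p = 0.13). Of 12 stellate cell and myofibroblast markers 0 were called and 11 lay above 0, with a median of 0.55. Vim, vimentin, was 6940 ± 660 and 4140 ± 1120 without overlap (adjusted p = 0.0766), and Acta2, smooth muscle actin, was 1001 ± 170 and 744 ± 268 (adjusted p = 0.434). The mean log2 level of the stellate list was 9.58 to 10.07 in the tumours and 9.06 to 9.45 in the peretinoin-fed livers, and its part in the matrix results was not tested. Of 17 genes of TGF-beta signalling, a main signal for collagen production, 0 were called. The lowest p among them was that of Bambi, a decoy receptor, at 0.74 ± 0.20 (adjusted p = 0.0549).

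Markers of recruited macrophages also gave higher signals in tumours without a call. Of 9 genes 0 were called and 9 lay above 0, with a median of 1.13. Gpnmb, a marker of lipid-laden and scar-associated macrophages, gave 678.6, 1567.9, 579.7, 606.3 and 428.9 in tumours and 48.4, 300.1, 362.7, 540.0 and 142.5 in peretinoin-fed livers (adjusted p = 0.0628). Cx3cr1, the fractalkine receptor, was 804.6 to 1054.7 in tumours and 84.0 to 883.9 in peretinoin-fed livers (adjusted p = 0.0674). Peretinoin-fed liver 1, with the muscle transcripts, was lowest for both genes, and it also had the lowest signal of the general macrophage marker Cd68, 130.4 against 810.8 to 965.9 in the other 4. Without that array the median of the list was 0.69, the lowest of any alternative. The median of 13 resident Kupffer cell markers was 0.38 with all arrays and -0.21 without peretinoin-fed liver 1, so no direction is given for that list. Of 7 genes of dendritic cells and MHC class II 0 were called, with a median of 0.53. H2-Eb1, an MHC class II chain, did not overlap at 5202 ± 787 and 3339 ± 842 (adjusted p = 0.0787). None of the markers measured for neutrophils (7), T and NK cells (8), B and plasma cells (6), endothelium (9), cholangiocytes (5), mesothelium (5), erythroid cells (2), adipocytes (3), pancreatic acinar cells (7) or skeletal muscle (8) was called by limma, at the same adjusted p.

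Mitosis genes stood higher in the tumours than in 3 of the 5 peretinoin-fed livers, while the other 2 livers lay among the tumours. All 20 mitosis genes measured lay above 0, with a median of 0.87, yet 0 were called. The median was 0.55 without peretinoin-fed liver 1 and 1.27 without peretinoin-fed liver 5. The mean log2 level of these 20 genes was 9.19, 7.42, 8.44, 7.96 and 9.14 in tumours 1 to 5. In the peretinoin-fed livers it was 6.32, 6.85, 6.85, 8.63 and 9.01. Peretinoin-fed livers 4 and 5 thus lay inside the tumours' range, and above every basal-diet transgenic liver (6.69 to 7.73), while livers 1 to 3 lay below every tumour. Cdk1, the kinase that starts mitosis, showed the same split, with 1518.0, 360.1, 561.8, 590.6 and 1246.4 in tumours and 140.8, 204.4, 194.9, 758.5 and 767.7 in peretinoin-fed livers (1.17 ± 0.45, adjusted p = 0.144). The proliferation antigen Mki67 differed by 0.87 ± 0.50 (adjusted p = 0.346). Birc5, survivin, differed by 1.47 ± 0.55 (adjusted p = 0.136) and the mitotic kinase Plk1 by 1.40 ± 0.51 (adjusted p = 0.128). Whether peretinoin-fed livers 4 and 5 held tumour tissue was not tested.

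Of 23 DNA replication genes 0 were called and 21 lay above 0, with a median of 0.52. Gins2, of the helicase complex that opens DNA, was 240 ± 53.8 in tumours and 96.6 ± 64.3 in peretinoin-fed livers (adjusted p = 0.0638). Of 13 genes of the G1 phase 1 was higher and 0 lower, against 0.901% of all genes higher. The called gene was Ccnd2, cyclin D2, with 1358.2 to 1946.9 in tumours and 622.2 to 1251.6 in peretinoin-fed livers (1.59-fold, adjusted p = 0.0415). It kept its call in 4 of 10 fits, and 5 of its 7 probe sets had the same sign. Ccnd1, cyclin D1, was 4174 ± 874 and 2697 ± 1120 (adjusted p = 0.243). Of 13 immediate early genes 0 were called, and Myc, a growth-promoting transcription factor, differed by 0.86 ± 0.51 (adjusted p = 0.364).

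**Figure D3:**
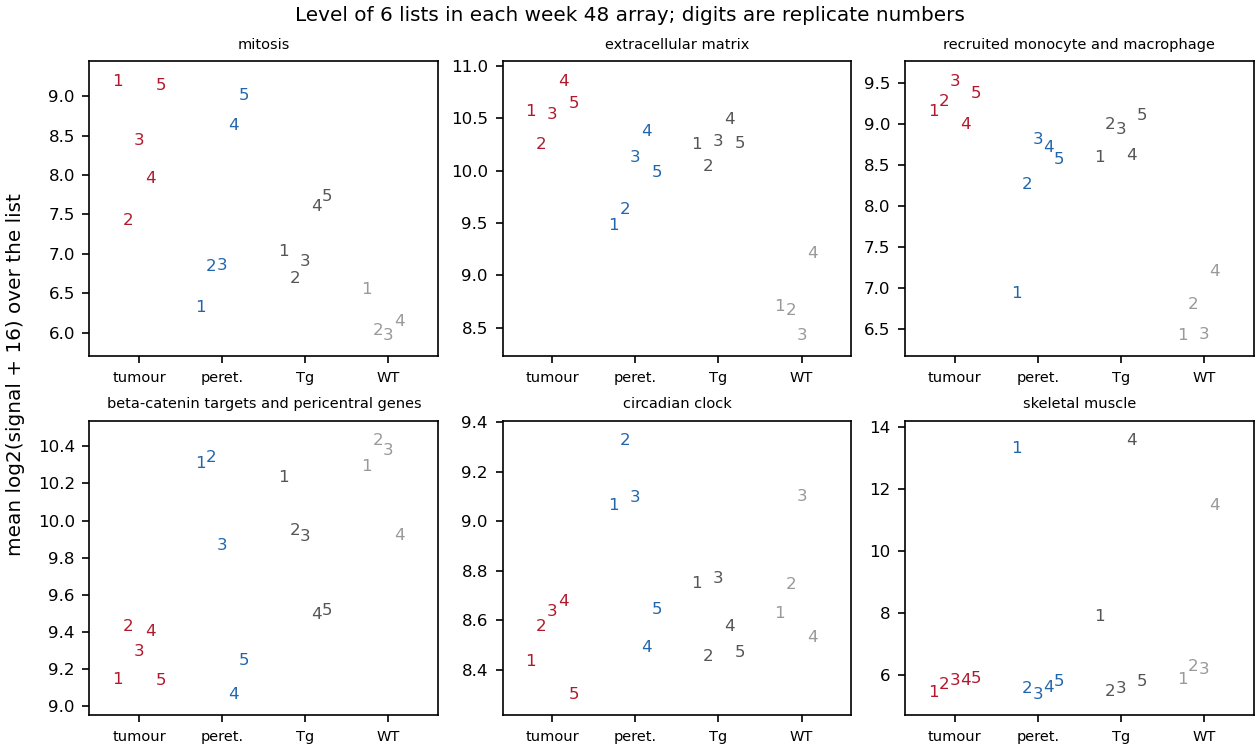
Mean log2(signal + 16) of 6 gene lists in each week 48 array; digits are replicate numbers of tumours (red), peretinoin-fed livers (blue), basal-diet transgenic livers (Tg, dark grey) and wild-type livers (WT, light grey). For mitosis genes peretinoin-fed livers 4 and 5 stand at 8.63 and 9.01, among the tumours (7.42 to 9.19), and the skeletal muscle panel shows peretinoin-fed liver 1 at 13.31.

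Among 14 oncofetal genes and liver tumour markers, 2 were higher and 0 lower in tumours, against 0.901% of all genes higher, with a median of 0.78. Sox4, a transcription factor of progenitor cells, gave 3723.6, 2742.8, 2524.1, 3247.5 and 3886.3 in tumours and 465.3, 598.6, 1329.7, 2198.0 and 2148.7 in peretinoin-fed livers. The groups did not overlap, with peretinoin-fed livers 4 and 5 nearest to the tumours (2.81-fold, adjusted p = 0.011, kept in 8 of 10 fits). Sox4 in basal-diet transgenic liver was 2074 ± 424 and in wild-type liver 436 ± 79.6.

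Scd2, a fatty acid desaturase little expressed in adult mouse liver, had the largest rise of all called genes. It gave 8888.8, 8366.3, 6344.8, 6375.2 and 12178.9 in tumours and 357.3, 1118.7, 1102.3, 10848.9 and 2186.0 in peretinoin-fed livers. Peretinoin-fed liver 4 thus exceeded 4 of the 5 tumours, while the other 4 lay below all of them. The fold was 5.04 (adjusted p = 0.0277, kept in 5 of 10 fits). The log2 difference of Scd2 was 2.34 with all arrays and 3.02 without peretinoin-fed liver 4. Wild-type liver gave 362 ± 131 for Scd2 and basal-diet transgenic liver 4477 ± 3390. Afp, alpha-fetoprotein, was 409 ± 142 in tumours and 273 ± 198 in peretinoin-fed livers (adjusted p = 0.297), with its highest signal of all 10, 622.2, in peretinoin-fed liver 4. Ly6d, a surface protein gene, gave 2442.1 to 8052.6 in tumours and 256.0 to 11919.4 in peretinoin-fed livers (1.16 ± 0.58, adjusted p = 0.281; 0.35 without peretinoin-fed liver 1). Robo1, a guidance receptor, differed by 0.80 ± 0.27 (adjusted p = 0.0982).

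Growth factor and vessel genes gave single calls, against 0.901% of all genes higher. Of 20 genes of the IGF, HGF and EGF axes 1 was higher and 0 lower: Ereg, the EGF receptor ligand epiregulin, at 108.3 to 211.8 in tumours and 28.0 to 73.0 in peretinoin-fed livers, without overlap (2.35-fold, adjusted p = 0.0441, kept in 3 of 10 fits). Met, the HGF receptor, did not overlap and was lower at 1938 ± 69.7 against 2883 ± 743, without a call (adjusted p = 0.059), and its 2 probe sets differed in sign. Of 13 VEGF and angiopoietin genes 1 was higher and 0 lower: Vegfc, the lymphatic growth factor, at 432.0 to 769.9 in tumours and 330.5 to 427.6 in peretinoin-fed livers (1.51-fold, adjusted p = 0.027, kept in 5 of 10 fits). Vegfa (-0.22 ± 0.15, adjusted p = 0.445) and Tek, the angiopoietin receptor (0.15 ± 0.25, adjusted p = 0.789), were not called, and both took the other sign in at least 1 alternative. Of 13 ER stress genes 1 was higher: Sdf2l1, a cofactor of protein folding, at 1109 ± 224 and 458 ± 151 without overlap (2.43-fold, adjusted p = 0.0286, kept in 4 of 10 fits). Wild-type liver had 1899 ± 643 of Sdf2l1, above both.

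Beta-catenin targets, which mark the hepatocytes around the central vein, pointed the other way. Of 16 genes 1 was lower and 0 higher in tumours, against 0.649% of all genes that fell, and 14 lay below 0, with a median of -0.41 that was -0.23 without peretinoin-fed liver 2 and -0.61 without peretinoin-fed liver 4. The called gene was Slc1a2, a glutamate transporter of pericentral hepatocytes. It gave 116.3, 167.0, 206.4, 224.1 and 93.8 in tumours and 3353.2, 2257.3, 1745.1, 165.8 and 439.9 in peretinoin-fed livers. Peretinoin-fed liver 4 lay inside the tumours' range and the other 4 above it. The fold was 6.02 lower (adjusted p = 0.011, kept in 8 of 10 fits), the largest fall of all called genes. The log2 difference of Slc1a2 was -2.59 with all arrays and -3.21 without peretinoin-fed liver 4. Slc1a2 in basal-diet transgenic liver was 863 ± 582 and in wild-type liver 1639 ± 473.

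Glul, glutamine synthetase of the innermost pericentral cells, was 5105 ± 1520 in tumours and 10350 ± 4880 in peretinoin-fed livers, where liver 4 alone was at 2427.2 (-0.85 ± 0.33, adjusted p = 0.152). Sp5, a transcription factor induced by beta-catenin, had dim signals of 4.5 to 18.2 and 10.4 to 85.0 (adjusted p = 0.144). The list's mean log2 level was 9.14 to 9.43 in tumours, 10.31, 10.34 and 9.86 in peretinoin-fed livers 1 to 3 and 9.06 and 9.25 in livers 4 and 5. Ctnnb1, the gene of beta-catenin itself, was 12550 ± 786 and 10820 ± 1290 (0.22 ± 0.07, adjusted p = 0.103). Of 22 core and secreted Wnt pathway genes 1 was lower and 0 higher, against 0.649% of all genes lower. The called gene was Dvl1, a relay protein of Wnt receptors, at 1364.0 to 2188.6 in tumours and 1987.3 to 3986.7 in peretinoin-fed livers (1.49-fold lower, adjusted p = 0.0472, kept in 3 of 10 fits).

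Among the 6 retinoic acid and retinoid X receptors 1 was lower and 0 higher in tumours, against 0.649% of all genes lower. Rxra, the main retinoid X receptor of liver, gave 2142.2, 1812.8, 1904.0, 3453.9 and 2199.9 in tumours and 4880.8, 4614.4, 3873.1, 2394.2 and 3184.8 in peretinoin-fed livers. The groups overlapped through tumour 4, which stood above peretinoin-fed livers 4 and 5, while the other 4 tumours lay below all livers. Rxra was 1.63-fold lower in tumours (adjusted p = 0.031, kept in 3 of 10 fits), and its 2 probe sets differed in sign. Rarb, a receptor gene that retinoic acid induces in many cells, was 519 ± 58.9 in tumours and 320 ± 135 in peretinoin-fed livers (0.79 ± 0.23, adjusted p = 0.0619).

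Of 12 genes of retinoid metabolism and storage 0 were called. Cyp26a1, the liver enzyme that breaks down retinoic acid, was 2102 ± 1030 and 2487 ± 1060 (adjusted p = 0.725). Basal-diet transgenic liver had a mean of 3684 ± 776 and wild-type liver 3670 ± 891. The differences of Cyp26a1 from basal-diet liver were -0.90 for tumours (limma, adjusted p = 0.383) and -0.66 for peretinoin (adjusted p = 0.348), neither called. Cyp26b1, a related enzyme, was 102.4 to 155.5 in tumours and 79.1 to 1080.2 in peretinoin-fed livers (-1.39 ± 0.46, adjusted p = 0.0974). Aldh1a1, which makes retinoic acid, did not overlap at 16510 ± 1210 and 21860 ± 2610 (adjusted p = 0.059), and Lrat, which esterifies retinol for storage in stellate cells, was 1266 ± 308 and 707 ± 283 (adjusted p = 0.068).

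Most genes of fatty acid oxidation gave lower signals in tumours than in peretinoin-fed livers, with 1 call. The list's mean log2 level was 11.41 to 11.79 in tumours (median 11.6) and 11.67 to 12.44 in peretinoin-fed livers (median 12.06), with overlap. Basal-diet transgenic liver spanned 11.2 to 11.9 (median 11.83) and wild-type liver 11.39 to 12.02 (median 11.845). Both medians lay between those of the compared groups, but both groups reached below every tumour. Of 13 genes of fatty acid oxidation and PPAR-alpha targets 1 was lower and 0 higher, against 0.649% of all genes lower, and 12 lay below 0, with a median of -0.28. Cpt1a, the gate of fatty acids into mitochondria, gave 4221.4, 5115.1, 4953.7, 5620.3 and 4384.2 in tumours and 9091.4, 8796.0, 9633.7, 4007.4 and 10152.1 in peretinoin-fed livers. Of the livers, number 4 was below all tumours and the other 4 above them. Cpt1a was 1.64-fold lower in tumours (adjusted p = 0.0292, kept in 4 of 10 fits). Basal-diet transgenic and wild-type livers had 6065 ± 971 and 7140 ± 1210 of Cpt1a. Cyp4a14, a PPAR-alpha target that oxidises fatty acids, gave 581.9 to 3909.5 in tumours and 6567.4 to 21352.3 in peretinoin-fed livers without overlap, but with a wide spread (-2.73 ± 0.90, adjusted p = 0.0951). Basal-diet transgenic and wild-type livers had 4868 ± 3550 and 3387 ± 2510 of Cyp4a14. Angptl4, a lipase inhibitor and PPAR target named after its values were seen, was 1012 ± 554 and 3625 ± 1740 (3.41-fold lower, adjusted p = 0.0305, kept in 3 of 10 fits). Pank1, which starts the synthesis of coenzyme A and was also named after its values were seen, was 4885 ± 520 and 9624 ± 3540 (1.86-fold lower, adjusted p = 0.0129, kept in 7 of 10 fits).

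Of 17 genes of cytochrome P450 and xenobiotic enzymes 2 were lower and 0 higher: Cyp2c37 and Cyp2c38, against 0.649% of all genes lower. The Cyp2c genes are near-identical in sequence, so their probe sets may share targets and each value is uncertain as that of 1 gene. Cyp2c37 gave 1242.2, 1385.8, 619.3, 2280.2 and 231.8 in tumours and 16269.7, 11592.2, 2985.4, 1483.4 and 4194.4 in peretinoin-fed livers (5.62-fold lower, adjusted p = 0.0222, kept in 7 of 10 fits). Its level in wild-type liver was 20070 ± 3220. Cyp2c38 was 843 ± 397 and 2679 ± 1720 (2.91-fold lower, adjusted p = 0.0373, kept in 3 of 10 fits). Outside the list, Cyp2c54 (4.49-fold lower, adjusted p = 0.0209, kept in 7 of 10 fits) and Cyp2c50 (2.18-fold lower, adjusted p = 0.011, kept in 8 of 10 fits) were called without overlap. Not all members had that sign: Cyp2c55 was 3369 ± 1430 in tumours and 1376 ± 1470 in peretinoin-fed livers (1.62 ± 0.52, adjusted p = 0.0919). Nr1i3, a nuclear receptor that induces Cyp2 genes, was 668 ± 200 and 1348 ± 465 (-0.95 ± 0.31, adjusted p = 0.0933).

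Other lists of liver function gave no call. Bile acid synthesis and transport had 0 of 19 genes called and 17 below 0, with a median of -0.33. Hepatocyte transcription factors had 0 of 12 called, and Hnf4a, the main one, was 8197 ± 1010 and 11220 ± 2050 (-0.44 ± 0.13, adjusted p = 0.0749). Circadian clock genes had 0 of 15 called, 10 below 0 and a median of -0.46, which was -0.24 without peretinoin-fed liver 2 and -0.62 without peretinoin-fed liver 4. Dbp, a clock output gene, gave 372.7, 155.7, 1076.0, 791.8 and 149.8 in tumours and 3432.3, 6853.3, 4109.1, 360.5 and 608.6 in peretinoin-fed livers (-2.24 ± 0.73, adjusted p = 0.093; -2.82 without peretinoin-fed liver 4). Here again livers 4 and 5 lay among the tumours, and the hour of sampling is not given in the sources used here. Cholesterol synthesis had 0 of 16 called and 15 above 0, with a median of 0.26, and the acute phase proteins, the urea cycle, the iron genes and the interferon response had 0 called each. The lists of fatty acid synthesis (17 genes), lipid droplets and fatty acid uptake (13), glycolysis and gluconeogenesis (16), glutathione defence (12), Notch signalling (12), male-biased liver genes (10) and sex chromosome genes (4) also had 0 called. Of 4 female-biased liver genes 0 were called and 2 lay below 0, with a median of -0.25; Cyp2b9 was at -1.43 ± 0.89 (adjusted p = 0.393) and Acot3 at -0.65 ± 0.64 (adjusted p = 0.623). A member of that list, Sult1e1, estrogen sulfotransferase, had the widest difference of any gene named, 3.39 ± 0.94, without a call (adjusted p = 0.0575). It gave 541.7 to 4100.0 in tumours, and 4365.9 in peretinoin-fed liver 4 against 4.8 to 174.3 in the other 4. The difference of Sult1e1 was 4.57 without peretinoin-fed liver 4 and 2.64 without peretinoin-fed liver 3.

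**Figure D4:**
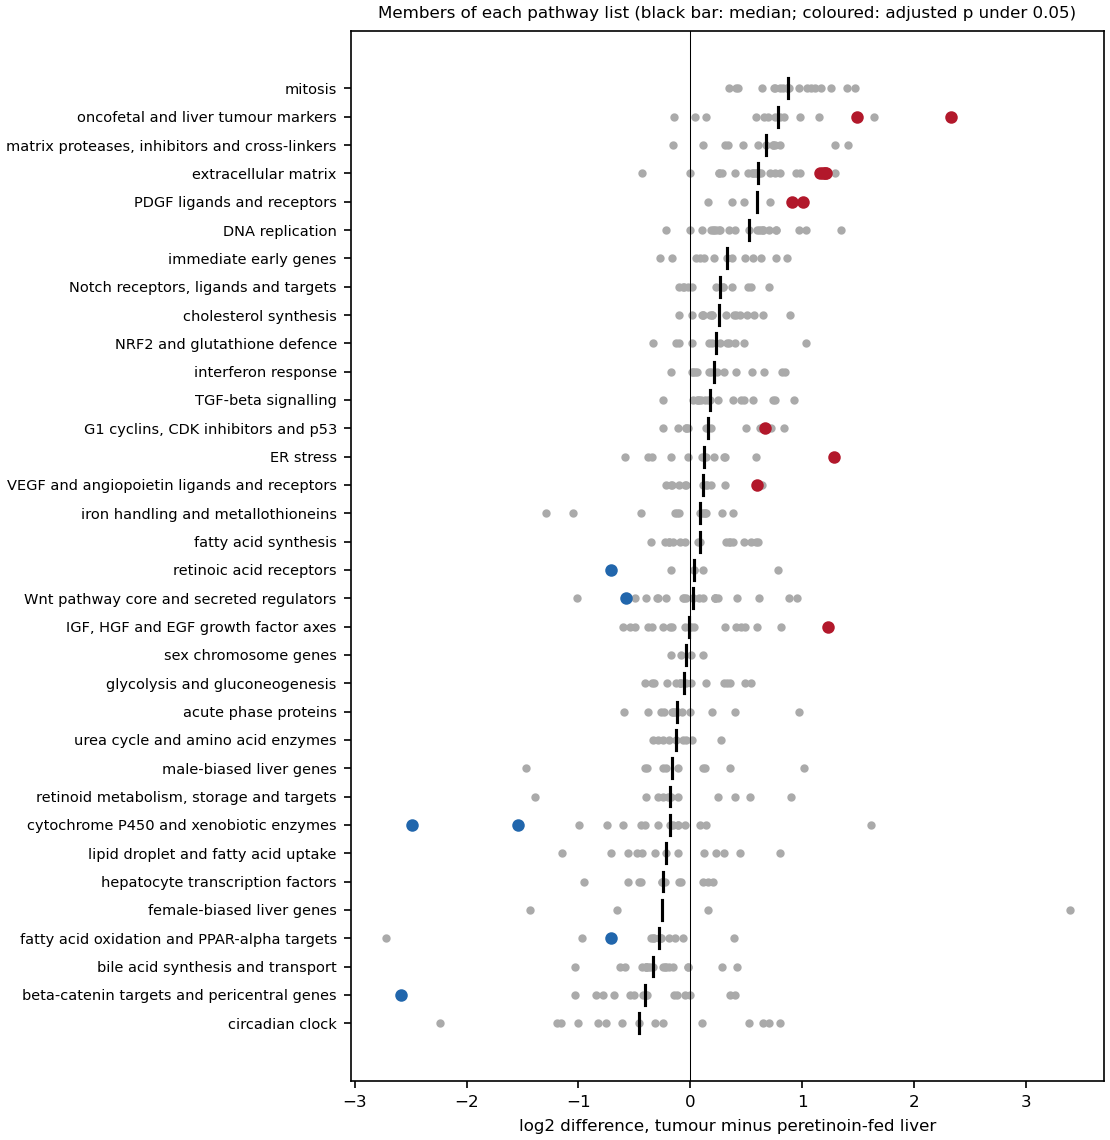
Each row is 1 of 34 pathway lists and each point 1 measured gene, placed at its log2 difference of tumours minus peretinoin-fed livers; black bars are list medians, red and blue points were called higher and lower. Mitosis has the highest median, 0.87, and no call, and the circadian clock has the lowest, -0.46, and no call.

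The 12 largest rises among called genes without overlap were Ifi213, Sox4, Capn6, Mbnl3, Itgbl1, Sdf2l1, Ereg, Col1a1, Zdhhc2, Igsf3, Col5a2 and Plagl1, from 4.11-fold to 2.20-fold. Ifi213, of the interferon-inducible p200 family whose members are alike in sequence, owed its first rank to tumour 2, at 3175.5 against 136.7 to 247.0 in the other tumours. Its log2 difference was 2.04 with all arrays (adjusted p = 0.0313, kept in 5 of 10 fits) and 1.24 without tumour 2 (adjusted p = 0.0524). Capn6, a calpain-like protein that stabilises microtubules, gave 814.0, 715.3, 997.6, 1219.7 and 651.1 in tumours and 184.4, 120.3, 414.3, 536.8 and 431.5 in peretinoin-fed livers. Its fold was 2.81 (adjusted p = 0.00871), and all 10 fits kept the call. Mbnl3, a splicing regulator, was 223 ± 74.5 and 78.9 ± 24.9 (2.50-fold, adjusted p = 0.011), and Itgbl1, an integrin beta-like secreted protein, was 221 ± 65.0 and 81.3 ± 29.9 (2.46-fold, adjusted p = 0.00871), each kept in 9 of 10 fits. Plagl1, an imprinted transcription factor gene, was 502 ± 68.4 and 223 ± 56.6 (adjusted p = 0.0296, kept in 4 of 10 fits), and its 2 probe sets differed in sign. Zdhhc2 kept its call in 6 and Igsf3 in 4 of the 10 fits.

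The mean of the basal-diet transgenic livers was nearer to the tumours for some of these genes and nearer to the peretinoin-fed livers for others. Capn6 and Itgbl1 were 934 ± 134 and 233 ± 47.4 there, near the tumours, and their peretinoin minus basal-diet differences were -1.60 and -1.39 (adjusted p = 0.0028 for both). Their tumour minus basal-diet differences were -0.11 (adjusted p = 0.976) and -0.09 (adjusted p = 0.979). Mbnl3 was 94.2 ± 37.1, near the peretinoin-fed livers, with differences of 1.12 for tumours (adjusted p = 0.217) and -0.20 for peretinoin (adjusted p = 0.783). Col1a1 was 495 ± 122, with differences of 0.94 for tumours (adjusted p = 0.304) and -0.25 for peretinoin (adjusted p = 0.754). For Mbnl3 and Col1a1 neither difference from basal-diet liver was called, so no side is given for them.

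The 12 largest falls were Cyp2c54, Chd7, Cyp2c50, Pptc7, Sod1, Trim24, Nipbl, Aldh5a1, Dmgdh, Marchf2, Dcaf8 and Tgfbrap1, from 4.49-fold to 1.55-fold. Sod1, cytosolic superoxide dismutase, was 9242.9 to 17102.7 in tumours and 17214.5 to 23628.8 in peretinoin-fed livers, where tumour 3 came closest (1.78-fold lower, adjusted p = 0.02, kept in 6 of 10 fits), and 3 of its 4 probe sets had the same sign. Trim24, a cofactor of retinoic acid receptors, gave 384.4 to 585.6 in tumours and 667.3 to 1039.2 in peretinoin-fed livers (1.77-fold lower, adjusted p = 0.0425, kept in 3 of 10 fits). Trim24 was 500 ± 113 in basal-diet transgenic and 742 ± 278 in wild-type liver. Dmgdh, a mitochondrial enzyme of choline breakdown, was 4109 ± 576 and 6616 ± 1040 (1.60-fold lower, adjusted p = 0.0147, kept in 7 of 10 fits). Aldh5a1, which breaks down a product of GABA, was 685 ± 83.9 and 1151 ± 268 (1.64-fold lower, adjusted p = 0.011, kept in 7 of 10 fits). Dcaf8, a substrate receptor of an E3 ubiquitin ligase, had little spread at 1305 ± 112 and 2086 ± 140 (1.59-fold lower, adjusted p = 0.0221, kept in 6 of 10 fits). Of the others, Marchf2 and Tgfbrap1 kept their calls in 8, Chd7 and Pptc7 in 6 and Nipbl in 4 of the 10 fits. For Marchf2, 2 of its 3 probe sets had the same sign, and for Nipbl 4 of 5.

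Calls of 5 genes held in all 10 fits with 1 array left out: Gli3, Slc39a14, Alyref, Capn6 and Borcs7. They were singled out after their values were seen. Gli3, a transcription factor of hedgehog signalling, had the lowest adjusted p of all genes, 0.00504. It gave 119.3, 102.8, 140.5, 96.6 and 119.7 in tumours and 60.6, 34.2, 64.3, 41.8 and 49.6 in peretinoin-fed livers, without overlap (2.01-fold). The signals in peretinoin-fed livers were dim, below the median signal of those arrays (71.5 to 77.5), and only 1 probe set of Gli3 was kept. Gli3 was 101 ± 27.7 in basal-diet transgenic and 89.7 ± 6.16 in wild-type liver, so the peretinoin-fed livers had the lowest mean of the week 48 groups. Its peretinoin minus basal-diet difference was -0.82 (adjusted p = 0.00803).

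Slc39a14, the zinc and iron importer ZIP14, gave 1610.4, 1758.9, 2082.2, 1393.1 and 1516.5 in tumours and 4351.5, 2746.7, 4003.4, 1932.1 and 4092.1 in peretinoin-fed livers (1.97-fold lower, adjusted p = 0.00871). Tumour 3 overlapped with peretinoin-fed liver 4, the lowest of the livers. Slc39a14 was 1822 ± 280 in basal-diet transgenic liver, and its peretinoin minus basal-diet difference was 0.86 (adjusted p = 0.0122). Alyref, an mRNA export factor, was 1088 ± 216 and 602 ± 69.2 (1.77-fold, adjusted p = 0.00871). Borcs7, of a complex that positions lysosomes, was 285 ± 65.8 and 495 ± 85.5 (1.71-fold lower, adjusted p = 0.00871). Without the arrays that carry another tissue's transcripts, the 6 genes called were Alyref, Gli3, Mbnl3, Pdgfd, Setd7 and Thbs2.

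**Figure D5:**
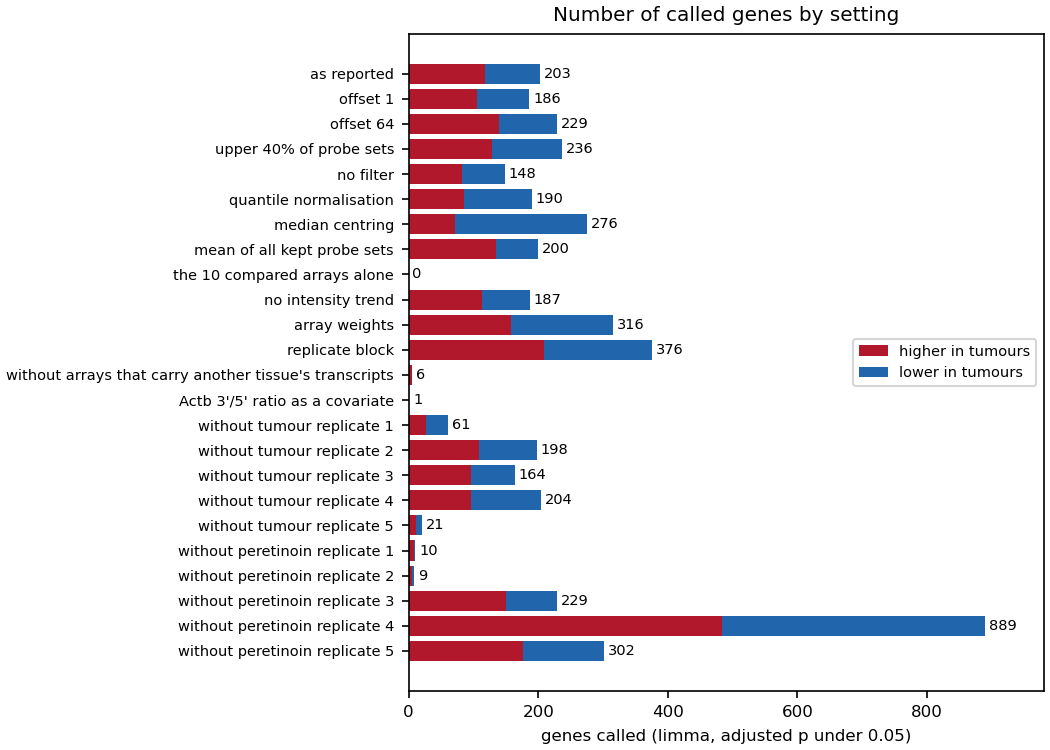
Number of genes called (limma, adjusted p under 0.05) under each setting, as bars from 0 with genes higher in tumours in red and lower in blue. The reported fit has 203, the 10 arrays alone have 0, and the fits with 1 array left out run from 9 to 889.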

How the data were processed

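Total RNA was labelled as biotinylated cRNA and hybridised to Affymetrix arrays, per the labels' protocols. The deposited values are linear signal intensities and MAS5 is the tool that the submitters' processing notes name, without a version; each array has the same trimmed mean. Signals were taken as log2(signal + 16). The 60% of non-control probe sets with the highest mean over 34 arrays were kept, and each gene was represented by its brightest probe set with exactly 1 symbol in the platform annotation (34945 of 45101 had 1 symbol, 932 several and 9160 none). The remaining 13099 genes entered 1 limma 3.58.1 model of 7 groups (R 4.3.3; eBayes with intensity trend). The members and the 49 gene lists (675 genes, 580 tested) were chosen with earlier results of these data known. Named genes are a panel of 16, the 12 largest rises and 12 largest falls among called genes without overlap, and up to 4 members of smallest p per list; others are marked. No array was left out and no duplicate was found (highest correlation between 2 arrays 0.976). Alternatives covered offset, filter, normalisation, probe set choice, weights, samples and a replicate block. The scripts were tested on simulated data.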

Additional observations from a re-analysis of the deposited data

Results flagged for a closer look

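In 111 genes and 2 groups of 5 samples, 222 sets were tested. In 11 of the 222 the highest or lowest sample had a gap to the next that exceeded 0.71 of the range. Gap and range were taken on the log2 scale used for the gene differences, while the values in brackets are linear signals. Chance gives about 1 in 20. The lowest peretinoin-fed liver stood apart for Pdgfc (506.4, liver 3), Cd68 (130.4, liver 1), Robo1 (310.7, liver 5), Ccnd2 (622.2, liver 1), and, each in liver 4, Glul (2427.2), Cpt1a (4007.4) and Nr1i3 (571.3). The lowest tumour stood apart for Ly6d (2442.1, tumour 4) and Igsf3 (88, tumour 3). The highest tumour stood apart for Ifi213 (3175.5, tumour 2) and Sod1 (17102.7, tumour 3).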

How the results depend on the processing

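The number of genes called, 203 as reported, was 316 with array weights, 376 with the replicate number as a block, 0 with the 10 arrays alone, 6 without the arrays that carry another tissue's transcripts, 1 with the Actb 3' to 5' ratio as a covariate, chosen after seeing the data, and 9 to 889 with 1 sample left out. The number called at 2-fold, 54 as reported, was 34 with an offset of 64, 79 with the block, 0, 4 and 1 in the last 3 settings, and 4 to 212 with 1 sample left out. The cause was not tested. Deviations of same-numbered samples from their group means correlated at -0.095 to 0.16 over genes, so the numbers were not taken as pairs. Without peretinoin-fed liver 1, 10 genes were called: Alyref, Borcs7, Capn6, Denr, Gli3, Itgbl1, Mbnl3, Setd7, Slc39a14 and Thbs2. Without peretinoin-fed liver 2 the 9 were Alyref, Borcs7, Capn6, Coa5, Gli3, Hmgn3, Kiz, Pdgfd and Slc39a14. With median centring the median over all genes was -0.071, against 0.03. The log2 difference of Vegfa was 0.0996 with the mean of all kept probe sets. The log2 difference of Tek was -0.0069 with array weights, -0.152 without the arrays of another tissue and -0.0958 with the Actb ratio, and -0.152 to 0.305 with 1 sample left out. No other named gene changed sign in any of the alternatives run. Over the called genes named, 275 leave-one-out values kept the call and 175 lost it.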
